A study of Mus musculus with 12 samples.

Results

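The type I interferon antiviral genes described here are 40 mouse genes taken by name, with earlier results of these data known, and read through every probe annotated to them under a current or older symbol. They were sorted into 5 sensors of viral nucleic acid, 25 effectors and 10 feedback genes that carry, amplify or dampen the interferon signal. Of the 40, 39 had at least 1 of 77 named probes (Ifi44 was not analysed here), and 34 passed the detection filter, 4 of them sensors, 20 effectors and 10 feedback genes. They stand among 14155 genes tested on the arrays. Type I interferons are released when a cell senses foreign or misplaced nucleic acid, and bind a receptor shared by nearly all cells. The receptor's kinases activate a transcription complex that holds Stat2 and Irf9 and switches on genes whose products block viral RNA, viral translation and virus release. In the brain, microglia, astrocytes, neurons and invading leukocytes can all answer interferon, and the same genes are often active in tumours without infection.

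The samples are brain gliomas of 12 C57BL/6 mice, 6 with a Tlx knockout and 6 with intact Tlx, 1 animal per bead array. All animals carried floxed alleles of Tlx, the older name of the neural stem cell receptor gene Nr2e1, and Nestin-Tva, the avian virus receptor through which tumours of this kind are started in Nestin-expressing cells. The genotype shared by both groups is Tlx f/f with N-Tva. The labels number the CreERT upward from animal to animal, and the treatment protocol names Nestin-CreERT2, the name used here for all. Knockout animals are CRE+ and were 48 to 79 days old, and intact animals are CRE- littermates and were 38 to 51 days old. Tamoxifen, which activates the Cre, was injected from 2.5 weeks after the tumours were started, and tumours were collected from animals with severe symptoms of the nervous system. Cre was driven by the Nestin promoter, so cells that never expressed Nestin keep Tlx in both groups, and the groups also differ in carriage of the Cre transgene.

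Facts of the whole series touch the comparison in a few places. Between 50.8% and 54.8% of the 45135 probes were detected per array, and median signal was 134.5 to 161 intensity units. The single Nr2e1 probe was detected on all 12 arrays, at a mean log2 intensity of 5.55 ± 0.53 in knockout and 6.13 ± 0.44 in intact gliomas (SD, n = 6 each). The knockout minus intact value of -0.58 (SE 0.26) had a limma adjusted p of 0.405, and no source used here says whether the probe lies in the deleted part. Mean age was 62.2 ± 10.1 days in knockout and 44.8 ± 5.08 days in intact animals (SD, n = 6 each, exact two-sided permutation p = 0.00649). Animal numbers in the labels have several forms, and 3 knockout and 2 intact animals share the form 56xx, called the 56xx series below. The other 3 knockout animals are of a 61xx form, and the other 4 intact animals have other forms. What these numbers stand for is not given, and no label calls them a batch. Markers of glioma and oligodendrocyte progenitors were measured in full, 8 of 8.

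Interferon acts on its target genes through a short element near their start, the interferon-stimulated response element, searched here on both strands as GAAA, any 2 bases and GAAA again. RefSeq promoters of build GRCm38.p6, from 250 bases before to 50 after the start, were at hand for 29 of the 40 genes. The letters occurred in 12 of these 29 (41.4%), against 3.99% of all 27025 genes with a promoter in the table. The element bound by interferon-gamma signalling, searched as TTCNNNGAA, which can overlap the first, occurred in 8 of 29 (27.6%), against 9.55% of all genes. A match is a string of letters and not a shown binding site. The following stretches, each on its gene's own strand with the matched bases in capitals, are shown because they hold letters that match this response element. They come from 3 genes with differences above 1 and 3 with smaller ones or too dim to test. Bst2 lies at chr8:71537557-71537632, Ifit3 at chr19:34583343-34583446, Isg15 at chr4:156200845-156200926, Oas3 at chr5:120777695-120777764, Rsad2 at chr12:26456533-26456602 and Ifit1 at chr19:34640755-34640843, with Ifit1 and Ifit3 on the plus strand and the others on the minus strand.
Isg15: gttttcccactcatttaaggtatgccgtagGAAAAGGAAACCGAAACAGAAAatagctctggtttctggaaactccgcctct
Ifit3: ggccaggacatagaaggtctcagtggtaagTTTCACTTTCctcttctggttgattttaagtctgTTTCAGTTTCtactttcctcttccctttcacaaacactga
Bst2: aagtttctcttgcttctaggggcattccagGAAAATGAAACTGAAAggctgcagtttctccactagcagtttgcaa
Rsad2: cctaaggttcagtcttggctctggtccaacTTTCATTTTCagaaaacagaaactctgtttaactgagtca
Oas3: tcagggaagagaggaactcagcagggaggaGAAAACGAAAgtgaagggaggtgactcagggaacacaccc
Ifit1: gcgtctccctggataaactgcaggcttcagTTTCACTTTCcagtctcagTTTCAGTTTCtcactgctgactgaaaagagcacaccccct
Isg15 held 3 overlapping matches in 1 run and Bst2 held 2, while Ifit3 and Ifit1 each held 2 separate ones in the opposite orientation. The genes with a match spanned nearly the whole range of differences given below, with 1.79 for Ifit3, 1.52 for Isg15, 1.26 for Bst2, 0.78 for Rsad2, 0.33 for Oas3 and -0.23 for Eif2ak2 on the log2 scale. Samd9l and Parp12, with differences of 1.51 and 2.16, had no match in this window.

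The comparison asks whether loss of Tlx in an established glioma goes with another level of the interferon response. Most of the measured genes read higher in knockout than in intact gliomas, led by the effectors Ifit3, Isg15 and Samd9l, which lay 2.86 to 3.46 times higher, by Parp12, which was above background on few intact arrays, and by the feedback gene Usp18, 2.79 times higher. No member passed the adjusted threshold in either direction. The excess was uneven among intact animals: the 2 intact gliomas of the 56xx series read near knockout levels for many members, and the other 4 intact gliomas read low. All levels are log2 intensities after background correction with an offset of 16, quantile normalization and, for genes with several probes, choice of the brightest, and fold changes on this scale understate those of dim probes.

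By limma with Benjamini-Hochberg adjustment over all genes, 0 of 34 members were called higher and 0 lower at an adjusted p of 0.05. Over all 14155 genes, 1 was called higher (0.00706%) and 1 lower (0.00706%). At an unadjusted p under 0.05, 16 of 34 members were higher in knockout and 0 lower, where 6.23% of all genes were higher and 5.72% lower. The 16 comprised 2 of 4 sensors, 10 of 20 effectors and 4 of 10 feedback genes. Differences were above 0 for 31 of 34 members, against 49.6% of all genes, and were 1 or more for 12 of 34, against 1.22% of all genes. The median difference was 0.61 over the 34, with 0.47 for sensors, 0.77 for effectors and 0.43 for feedback genes, against -0.0026 over all genes tested. A gene bright in only 1 group can pass the filter through that group. Parp12 and Irf7 in both the 16 and the 12, Parp10 among the 16 and Trim30a among the 12 passed only with their knockout arrays. These 2 counts are not given without a filter, so they rest in part on members selected through the knockout group. The count above 0 and the median were also read without a filter. There 33 of 39 members lay above 0 with a median of 0.44, against 47.9% of all genes and a median of -0.011. Every knockout array lay above every intact array for 3 of 34 members, Samd9l, Parp10 and Ddx58, where 0.431% of all genes separated in this way. Parp10 passed the filter only through its knockout arrays, so this share is read without a filter too, at 3 of 39 members and 0.394% of all 19031 genes. These p-values rest on the spread among separate animals, and in bulk tissue a higher level can come from more cells of a type or more RNA per cell, which cannot be told apart.

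**Figure D1:**
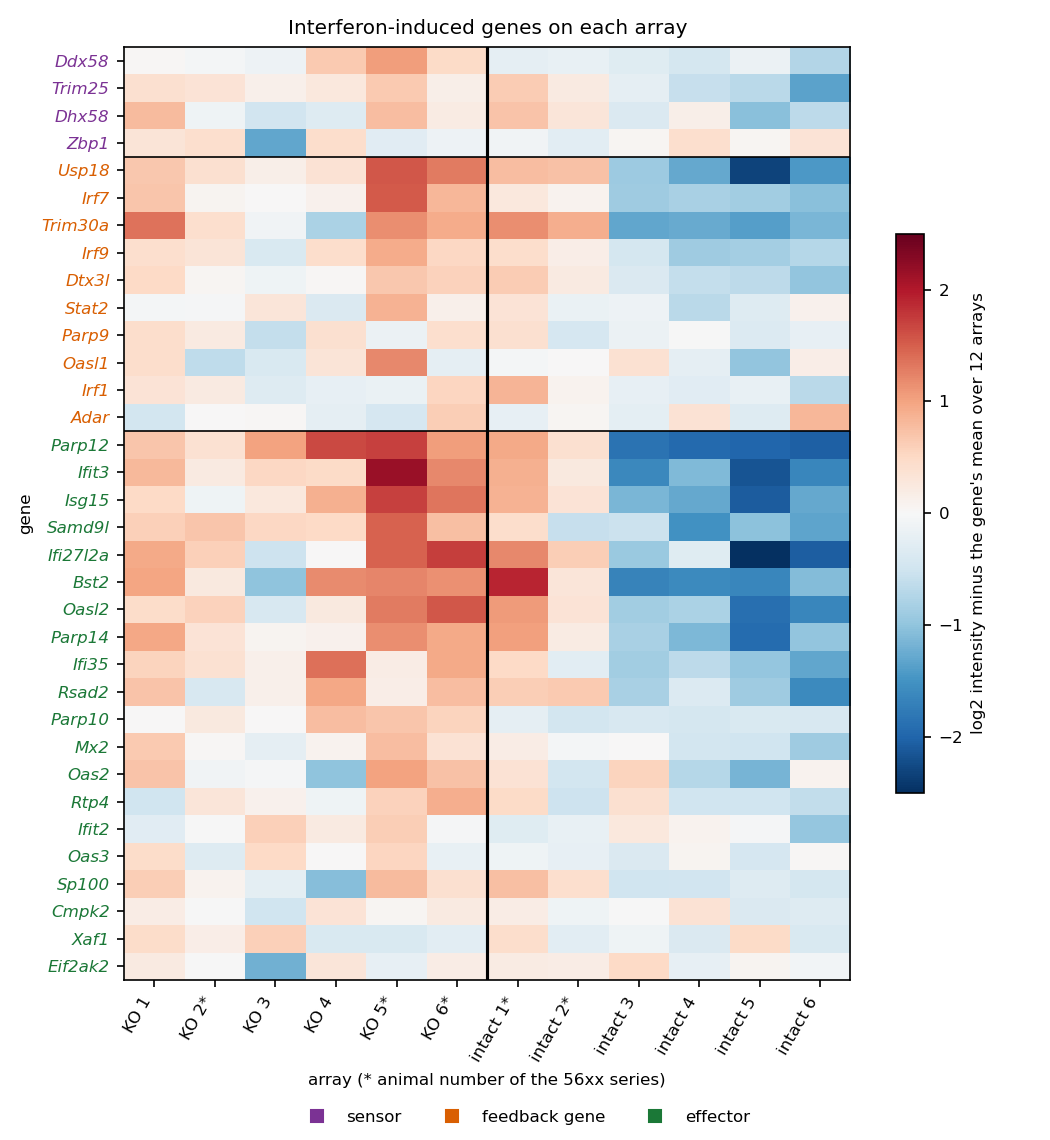
Log2 intensity of each of the 34 measured members on each of the 12 arrays (columns, knockout left of intact), as the deviation from the gene's mean over all arrays (colour, log2 units), with genes grouped as sensors, feedback genes and effectors and ordered by difference within each. Intact replicates 1 and 2, of the 56xx series, share the red of most knockout columns for Usp18, Trim30a, Parp12, Ifit3 and Bst2, and intact replicates 3 to 6 are blue for these genes.

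**Figure D2:**
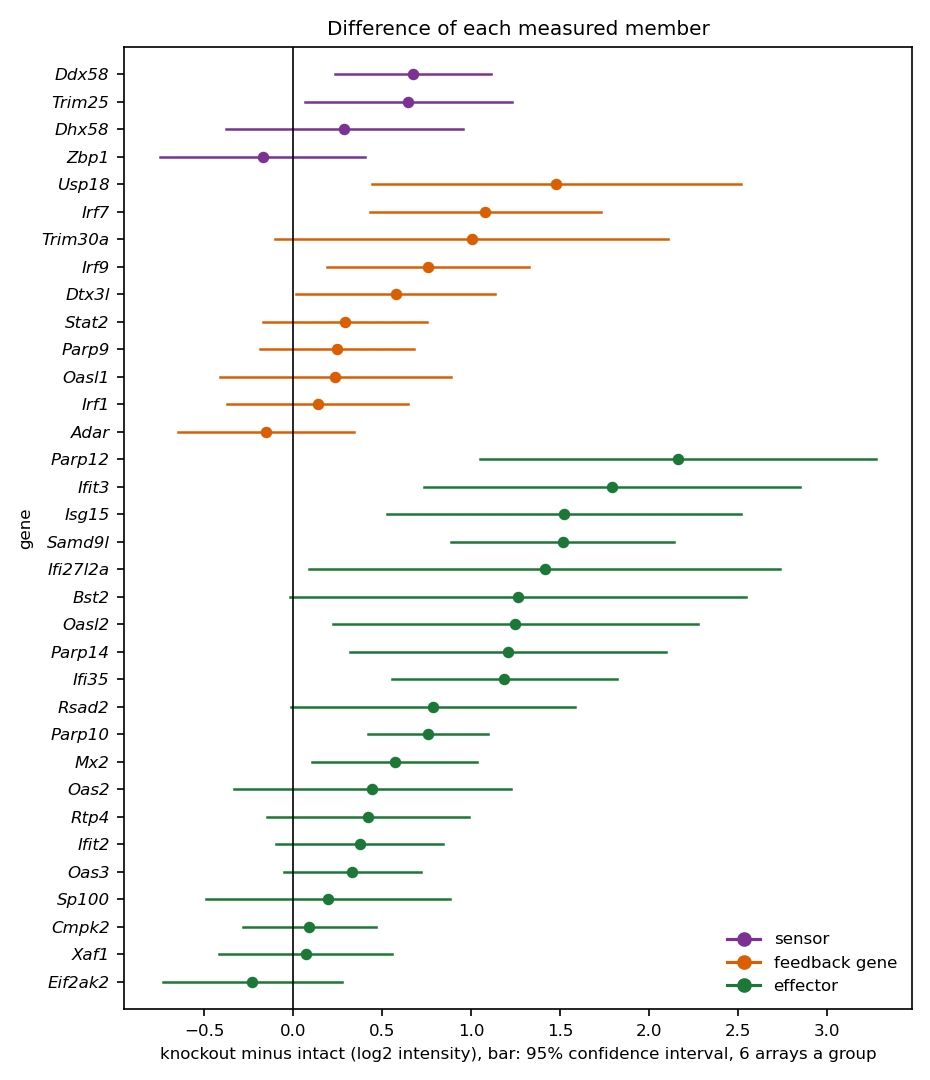
Knockout minus intact difference (horizontal axis, log2 intensity) of the 34 measured members, with points for the fitted difference and bars for its 95% confidence interval from limma, 6 arrays a group. Points lie above 0 for 31 genes, from -0.23 for Eif2ak2 to 2.16 for Parp12, and the unadjusted interval excludes 0 for 16.

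The array medians show how single animals carried this. The median deviation of the 34 members from their means over the arrays was 0.48, 0.19, -0.01, 0.26, 0.79 and 0.57 in knockout replicates 1 to 6, against 0.46, 0.09, -0.36, -0.49, -0.76 and -0.80 in intact replicates 1 to 6. The highest array was knockout replicate 5, which held the highest value for 18 of the 34 members, and intact replicates 5 and 6 each held the lowest value for 11. Intact replicates 1 and 2, of the 56xx series, lay within the range of the knockout arrays, and the other 4 intact arrays lay below every knockout array.

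Among the sensors, Ddx58 was separated between the groups and the others overlapped. Ddx58 encodes RIG-I, which detects viral RNA in the cytoplasm and relays through Mavs to interferon transcription. Its lowest, median and highest log2 intensities were 6.47, 6.85 and 7.64 in knockout gliomas, against 5.87, 6.34 and 6.45 in intact gliomas, and sets of 3 levels below keep this order. All 6 knockout values lay above all 6 intact values, though the lowest knockout value was close to the highest intact one. The fitted difference of 0.67 (SE 0.2, 1.59-fold) had a limma adjusted p of 0.234. Within the 56xx series it was 0.69, with a sign that the separation of the groups fixes, and with age as a covariate it was 0.14, which moved the value by over 1.5 times. The dimmer of its 2 measured probes, found on 3 arrays of each group, read -0.06, so the probes of this gene differed in sign.

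Trim25 is the ubiquitin ligase that helps activate RIG-I. It read 10.13, 10.31 and 10.64 in knockout gliomas (lowest, median and highest), against 8.66, 9.61 and 10.64 in intact gliomas. The knockout values lay close together and the intact values spread over a wide range, with the 2 intact arrays of the 56xx series at 10.2 and 10.6 and the other 4 at or below 9.78. Its difference was 0.65 (SE 0.27, 1.56-fold, limma adjusted p = 0.375), and within the 56xx series it was -0.05. Another Trim25 probe gave 0.18. Dhx58 encodes LGP2, a regulator of the RIG-I-like receptors without signalling domains of its own. Its values were 5.38, 5.91 and 6.64 in knockout and 4.82, 5.76 and 6.57 in intact gliomas, and the groups overlapped over most of their range. The difference was 0.29 (SE 0.31, limma adjusted p = 0.75), with 0.31, 0.75 and 0.57 from its 3 other measured probes.

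Zbp1, a sensor of left-handed nucleic acid that can trigger cell death, was the sensor with a difference below 0. Its knockout values were 5.09, 6.5 and 6.84, against 6.13, 6.45 and 6.83 in intact gliomas, and the lowest was knockout replicate 3. The difference of -0.17 (SE 0.27, limma adjusted p = 0.831) became 0.07 without that array, and a dimmer Zbp1 probe read 0.15. Ifih1, which encodes the long-RNA sensor MDA5, was detected on 2 of 6 knockout arrays and 0 of 6 intact arrays and was not tested. Its log2 intensities of 4.24, 4.5 and 5.12 in knockout and 4.22, 4.39 and 4.84 in intact gliomas overlapped, and no fold is given because the bound fell under 1.

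The effectors held the largest differences. Samd9l, an interferon-induced restrictor of poxviruses and of cell growth, had the smallest unadjusted p of the 34 members. Its lowest, median and highest log2 intensities were 10.26, 10.41 and 11.24 in knockout gliomas and 8.25, 8.95 and 10.2 in intact gliomas. The groups did not overlap, and the highest intact value, in replicate 1, came close to the lowest knockout value. The difference was 1.51 (SE 0.29, 2.86-fold), with a limma adjusted p of 0.185, and it was 1.05 within the 56xx series and 1.47 with age as a covariate.

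The mono-ADP-ribosyltransferases Parp10, Parp12 and Parp14 attach single ADP-ribose units to proteins, and several of them slow viral replication. Parp10 was detected on 6 of 6 knockout arrays and 0 of 6 intact arrays. It read 4.79, 5.18 and 5.55 in knockout gliomas, against 4.33, 4.39 and 4.57 in intact gliomas, with no overlap. Since the intact side was not above background, Parp10 was at least 1.48-fold higher in knockout, a bound set by the lowest detected signal on each array, and its limma adjusted p was 0.185. A gene detected in only 1 group passes the filter through that group, and the 3 other Parp10 probes were detected on 1 array or none.

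Parp12, the next of these enzymes, was near background in most intact gliomas. Its knockout values were 6.64, 7.29 and 7.97, against 4.22, 4.36 and 7.2 in intact gliomas. All 6 knockout arrays detected it, and the 2 intact arrays that did, at 6.66 and 7.2, were those of the 56xx series, while the other 4 lay between 4.22 and 4.41. The difference was 2.16 (SE 0.52, limma adjusted p = 0.201) over all arrays and 0.37 within the 56xx series. Its size depends on how background is treated, at 1.37 with an offset of 50 and 0.84 without background correction, where Ifit3 read 1.71 and 1.55. Parp14, which also modulates the response of immune cells to cytokines, read 7.68, 8.26 and 8.77 in knockout and 5.7, 6.71 and 8.64 in intact gliomas. Its groups overlapped through intact replicates 1 and 2, and its difference of 1.2 (SE 0.41, limma adjusted p = 0.285) was 0.2 within that series. Another, dimmer probe gave 0.23.

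Ifit3 and Isg15 are among the strongest targets of interferon in most cells. Ifit3 stabilises the complex of Ifit proteins that holds viral RNA, and its values were 10.28, 10.71 and 12.2 in knockout gliomas and 7.9, 8.69 and 10.94 in intact gliomas. Intact replicates 1 and 2 read 10.3 and 10.9, inside the knockout range, and the other 4 intact arrays read at or below 8.94. The difference was 1.79 (SE 0.49, 3.46-fold, limma adjusted p = 0.211), with 1.52 from another probe and 0.63 within the 56xx series. Mouse Ifit3 has a near-identical neighbour, Ifit3b, which a probe may not tell apart. Isg15, a ubiquitin-like protein joined to viral and host proteins, showed the same order. It read 8.02, 8.82 and 9.83 in knockout gliomas, against 6.06, 6.93 and 8.99 in intact gliomas, with a difference of 1.52 (SE 0.46, 2.87-fold, limma adjusted p = 0.234). The 4 intact arrays outside the 56xx series lay at or below 6.99, below every knockout array, and within the series the difference was 0.38.

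Ifi35, an interferon-induced partner of the protein Nmi, had values of 6.75, 7.08 and 7.99 in knockout gliomas and 5.32, 5.85 and 7.12 in intact gliomas. Intact replicate 1 lay inside the knockout range and the other 5 intact arrays lay below all knockout arrays. Its difference was 1.19 (SE 0.29, 2.28-fold, limma adjusted p = 0.208), and 0.38 within the 56xx series. Oasl2, related to the enzymes that make the RNase L activator, read 8.48, 9.4 and 10.43 in knockout gliomas, against 7.0, 8.05 and 9.95 in intact gliomas. Both intact arrays of the 56xx series lay inside the knockout range, and the difference of 1.25 (SE 0.48, limma adjusted p = 0.334) was 0.44 within it. Another Oasl2 probe gave 0.74.

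Mx2, a dynamin-like GTPase, had values of 6.17, 6.62 and 7.17 in knockout gliomas and 5.51, 6.14 and 6.57 in intact gliomas, and the groups overlapped in part. Its difference was 0.57 (SE 0.22, 1.48-fold, limma adjusted p = 0.33), and 0.33 within the 56xx series. Ifi27l2a, a small hydrophobic interferon-induced protein with close relatives in its gene cluster, had the widest intact spread, at 7.47, 8.75 and 9.71 in knockout gliomas and 5.22, 7.36 and 9.19 in intact gliomas. The lowest value was intact replicate 5. Its difference of 1.41 (SE 0.62, limma adjusted p = 0.395) had an unadjusted 95% interval from 0.09 to 2.74 and was 0.35 within that series.

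**Figure D3:**
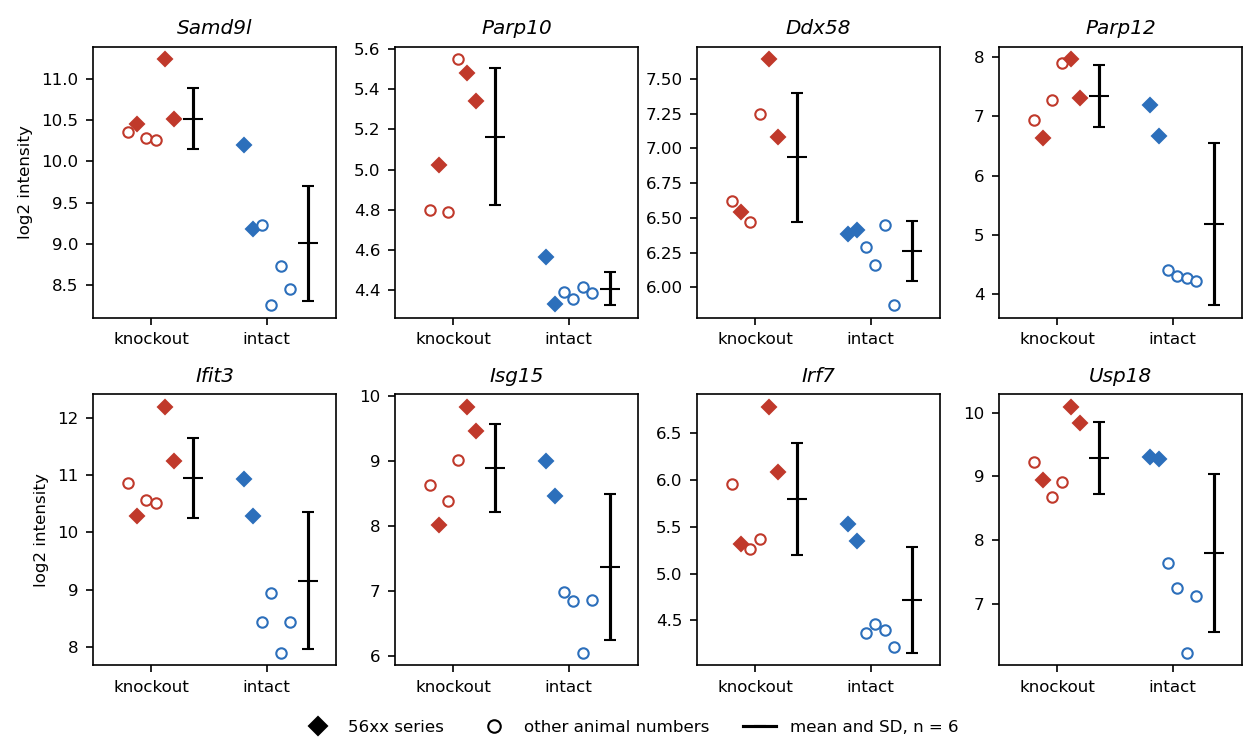
Log2 intensity (vertical axes, a scale of its own for each gene) of 8 members on each array, knockout left and intact right, with diamonds for animals of the 56xx series, circles for the others, and bars for the mean and SD of 6 arrays. In Samd9l, Parp10 and Ddx58 every knockout point lies above every intact point, and in Parp12, Ifit3, Isg15, Irf7 and Usp18 the 2 intact diamonds lie apart from the 4 intact circles.

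Other effectors overlapped between the groups. Bst2, or tetherin, which holds budding virus at the cell surface, differed by 1.26 over all arrays (SE 0.6) and by -0.23 (SE 0.63) within the 56xx series. The highest Bst2 value of all, 8.59, was intact replicate 1. Rsad2, or viperin, whose product makes a chain-ending nucleotide, differed by 0.78 (SE 0.37) over all arrays and by -0.46 (SE 0.41) within that series. These 2 genes thus had opposite signs in the full set and in the series, where neither value was large beside its SE. The oligoadenylate synthetases Oas2 and Oas3, which activate RNase L, differed by 0.44 and 0.33, the RNA-binding Ifit2 by 0.37 and Rtp4 by 0.42, and with the column block as a term Ifit2 read 0.0039 and Rtp4 -0.11. The differences of Sp100, a nuclear body protein with repeated copies in the mouse, of the mitochondrial nucleotide kinase Cmpk2 and of the cell death factor Xaf1 were 0.19, 0.09 and 0.07. The adjusted p of these 9 genes was 0.43 or more in limma.

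Eif2ak2 was the effector with a difference below 0. It encodes PKR, the kinase that halts translation on double-stranded RNA, and read 8.13, 9.42 and 9.64 in knockout gliomas, against 9.13, 9.46 and 9.83 in intact gliomas. Knockout replicate 3 stood at the low end and the other 5 knockout arrays, at 9.12 or more, lay close to or within the intact range. Its difference was -0.23 (SE 0.23, limma adjusted p = 0.732). Without that array it was -0.01, so 1 library set most of this value.

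Ifit1, Isg20, Oas1a and Mx1 were too dim to test. Ifit1, the cap-binding partner of Ifit3, and Oas1a were each detected on 0 knockout arrays and 1 intact array, at log2 intensities of 4.23, 4.32 and 4.76 and 4.15, 4.21 and 4.3 in knockout gliomas, against 4.4, 4.55 and 5.32 and 4.19, 4.23 and 4.77 in intact gliomas (lowest, median and highest of each gene in turn). The bound for Ifit1 was at least 1.04-fold lower in knockout, where the intact mean rests mostly on arrays not above background. The bound for Oas1a fell under 1. Isg20, an RNA-degrading exonuclease, was not well above background on any array, at 4.14, 4.19 and 4.29 in knockout gliomas and 4.21, 4.29 and 4.43 in intact gliomas. Mx1, a GTPase that is defective in many laboratory strains, was detected on 1 knockout array and 0 intact arrays. It read 4.33, 4.55 and 5.18 in knockout gliomas, against 4.19, 4.3 and 4.42 in intact gliomas, and its bound was at least 1.01-fold higher in knockout, where the mean holds 5 arrays not above background.

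The feedback genes include those that carry the signal into the nucleus and those that dampen it. Irf7, the factor that amplifies interferon-alpha transcription, was detected on 6 of 6 knockout arrays and on 2 of 6 intact arrays, both of the 56xx series. Its values were 5.27, 5.67 and 6.79 in knockout gliomas and 4.22, 4.43 and 5.53 in intact gliomas. The 2 intact arrays that detected it, at 5.35 and 5.53, lay in the lower part of the knockout range, and the other 4 lay at or below 4.46. The difference was 1.08 (SE 0.3, limma adjusted p = 0.211), 0.62 within the 56xx series and 0.57 with an offset of 50.

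Usp18 removes Isg15 from proteins and blocks the interferon receptor, which makes it a main brake of the pathway. It read 8.68, 9.09 and 10.09 in knockout gliomas, against 6.24, 7.45 and 9.31 in intact gliomas. The 2 intact arrays of the 56xx series, at 9.27 and 9.31, were above the knockout median, and the other 4 were below every knockout array. Its difference of 1.48 (SE 0.48, 2.79-fold, limma adjusted p = 0.262) stood beside 1.46 from another probe and was 0.34 within the series. Irf9 and Stat2 are parts of the interferon-activated transcription complex. Irf9 read 8.23, 9.03 and 9.53 in knockout gliomas and 7.7, 8.02 and 9.05 in intact gliomas, a difference of 0.76 (SE 0.26, limma adjusted p = 0.287), with 0.36 from another probe. Its knockout values lay above those of the 4 intact arrays outside the 56xx series and overlapped those of the other 2. For Stat2 the values were 6.14, 6.55 and 7.36 in knockout gliomas, against 5.82, 6.35 and 6.84 in intact gliomas, and the difference of 0.29 (SE 0.21, limma adjusted p = 0.628) was small beside the spread of either group.

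Dtx3l, a ubiquitin ligase that works in a complex with Parp9, read 7.86, 8.24 and 8.63 in knockout gliomas, against 6.97, 7.49 and 8.61 in intact gliomas. Both intact arrays of the 56xx series fell within the knockout range. Its difference was 0.57 (SE 0.26, limma adjusted p = 0.409), it was -0.0017 (SE 0.28) within the series, and its partner Parp9 differed by 0.25. Trim30a, a mouse protein that restrains signalling from Toll-like receptors and has close copies beside it, was detected on 5 knockout and 2 intact arrays. Its values were 4.8, 6.26 and 6.94 in knockout gliomas and 4.2, 4.38 and 6.74 in intact gliomas, with knockout replicate 4 low and intact replicates 1 and 2 high. The difference of 1.0 (SE 0.51, limma adjusted p = 0.465) turned to -0.2 (SE 0.49) within the 56xx series.

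Adar edits the cell's own double-stranded RNA and so keeps it from Ifih1, and it was the feedback gene with a difference below 0. It read 7.65, 7.99 and 8.72 in knockout gliomas, against 7.79, 8.02 and 8.94 in intact gliomas, with nearly complete overlap. The difference was -0.15 (SE 0.23, limma adjusted p = 0.824), and its 4 other probes gave -0.40, -0.17, -0.23 and -0.20. Within the 56xx series the sign turned, at 0.15. Irf1, a transcription factor induced mainly by interferon-gamma, differed by 0.14, with 0.50, -0.18 and 0.15 from its other measured probes. Oasl1, which in the mouse blocks translation of Irf7, differed by 0.24 on its brightest probe and by 0.49 on the mean of its measured probes. A dimmer probe, detected on 5 knockout arrays and 0 intact arrays, had means of 5.14 in knockout and 4.39 in intact gliomas. Its intact side was not above background, and no fold or bound is given for it.

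Grouping the animals by number form moved the median difference more than any other setting that was tried. With the form as a fixed block, the comparison rests on the 56xx series alone, 3 knockout against 2 intact animals, since no other form holds both groups. The median difference was then 0.22, with 24 of 34 members above 0 (70.6%), where the median of all genes was near 0 and 50.0% lay above 0. Sensors, effectors and feedback genes had medians of 0.07, 0.36 and 0.16. Both intact 56xx arrays lay above the other 4 intact arrays for 18 of 34 members (52.9%), against 9.89% of all genes, and their median excess over those 4 arrays was 1.0. Every knockout array lay above these 4 for 16 of 34 members (47.1%), against 2.79% of all genes. Among animals outside the 56xx series, the 61xx knockout gliomas exceeded the 4 intact gliomas by a median of 0.65, and there group and number form cannot be told apart.

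Column position in the deposited table and age also split the groups. The first 6 columns hold 5 knockout arrays and 1 intact array and the last 6 hold 1 and 5. With the column block as a term the median was 0.62 and 31 of 34 members lay above 0, and within the first and the last 6 columns it was 0.57 and 0.78. In the 56xx series column position and group coincide, so there they cannot be told apart. With age as a covariate the median was 0.48 and 30 of 34 members lay above 0. Beside Ddx58, the covariate left Irf7 at 0.61, Dhx58 at 0.16, Ifit2 at 0.11, Stat2 at 0.06 and Oas3 at 0.02, each well under its value without age, and Irf1 at 0.45, which was above it. The column block moved Trim30a to 1.66, Dhx58 to 0.63, Sp100 to 0.56 and Irf1 to 0.31, each by over 1.5 times. A single array decided the calls. Without intact replicate 1, of the 56xx series, limma called 4 members higher at an adjusted p under 0.05, against 0.636% of all genes. These were Ifit3 (adjusted p = 0.0423), Ifi35 (0.0318), Parp12 (0.0315) and Samd9l (0.0131), whose adjusted p ranged up to 0.999 over the alternatives, and their knockout arrays were above the intact median on 6 of 6 arrays.

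**Figure D4:**
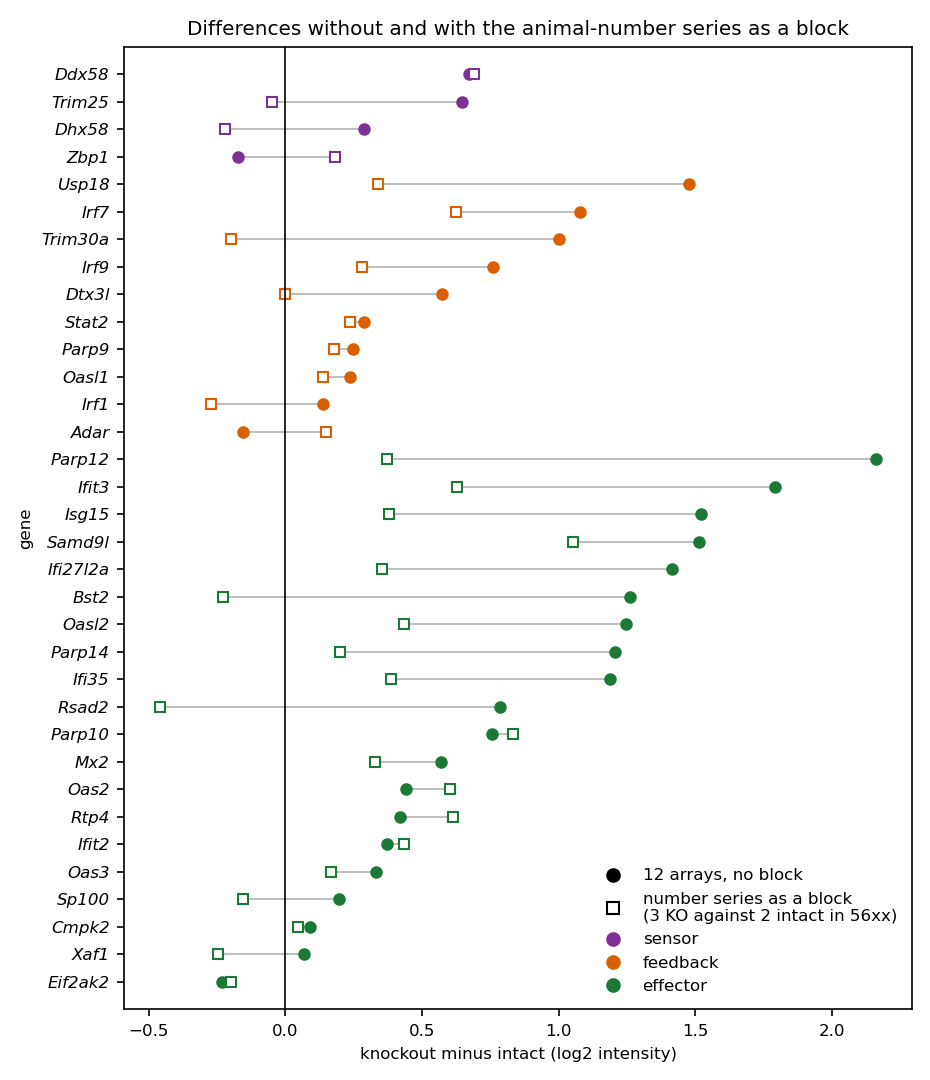
Knockout minus intact difference (horizontal axis, log2 intensity) of the 34 measured members from all 12 arrays (filled points) and with the number series as a block (open squares, 3 knockout against 2 intact animals), joined by a line and coloured by role. Samd9l lies at 1.51 over all arrays and at 1.05 in the blocked fit, Bst2, Rsad2 and Trim30a change sign, and the intact level behind the Parp10 points is not above background.

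The other steps of the pathway, taken from lists of its ligands, relays and brakes, showed no call in either direction. Of 12 ligand, receptor and receptor kinase genes, 7 were measured, 3 lay above 0 and the median was -0.09, where 49.6% of all genes lay above 0. The measured ligand genes, Ifna1, Ifna2, Ifna9 and Ifna12, were dim, with group means from 4.53 to 5.68. The median of -0.09 is the value of Ifna12, so it says little about ligand levels. The interferon-beta gene Ifnb1 and the receptor chain gene Ifnar1 were detected on no array. The other receptor chain gene, Ifnar2, differed by 0.38 and the kinase gene Jak1 by -0.41. Of 16 genes that relay sensing to interferon transcription, 15 were measured and 12 lay above 0, with a median of 0.27, against 7 above 0 and a median of -0.02 within the 56xx series. Irf5 and Tlr3 had the smallest p, with differences of 0.68 and -0.3. Of 11 inhibitors of the pathway, 10 were measured and 5 lay above 0, with a median of 0.04. Among them Pias1, which restrains cytokine signalling, differed by 0.3 and Trex1, which clears stray DNA, by 0.56, while Socs1 was detected on no array. The 6 interferon-gamma genes had 3 above 0 and a median of -0.01, with 0.49 for Jak2 and 0.29 for Ifngr1.

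Summed levels of microglia and macrophage markers were higher on the 2 intact arrays of the 56xx series than on the other 4, as many interferon genes were. Summed endothelial markers, given below and mostly from Cldn5, were split in the same way. For microglia and macrophages, 13 of 15 markers were measured and 11 lay above 0, with a median difference of 0.14, and 0.52 with the column block as a term. Their summed linear intensity ranged from 6653 to 25874 in knockout gliomas, against 7342 to 24433 in intact gliomas, where the 2 intact arrays of the 56xx series had 12781 to 24433 and the other 4 had 7342 to 9781. The 2 markers of smallest p were also the only ones below 0. The microglial receptor gene P2ry12 had a difference of -2.13 (SE 0.57, limma adjusted p = 0.211), and Itgam differed by -0.61. Itgam was dim, with means of 4.72 in knockout and 5.33 in intact gliomas. The 11 markers above 0 reached 0.91, for C1qb. For monocytes and neutrophils, 4 of 9 markers were measured, 3 lay above 0 and the median was 0.64. Their sum ranged from 1965 to 9269 in knockout gliomas, against 1342 to 6152 in intact gliomas, with 4167 to 6152 on the 56xx intact arrays and 1342 to 1899 on the other 4. The median deviation of these 4 genes did not keep that order, at 0.06 and 0.27 on the 56xx intact arrays and 0.15 on intact replicate 4. Most of the sum came from Lyz2, with means of 11.65 in knockout and 11.12 in intact gliomas. S100a9 and Mpo were dim, with group means from 4.63 to 5.60, so the sum says little about the list as a whole. The neutrophil genes S100a8 and S100a9 differed by 1.55 and 0.76 over all arrays, and by 0.0034 and -0.39 within the 56xx series, where the list's median was -0.27 with 1 of 4 above 0. Ly6c2, Ccr2, Ly6g, Ngp and Camp were not measured. The part of these cells in the interferon result was not tested.

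**Figure D5:**
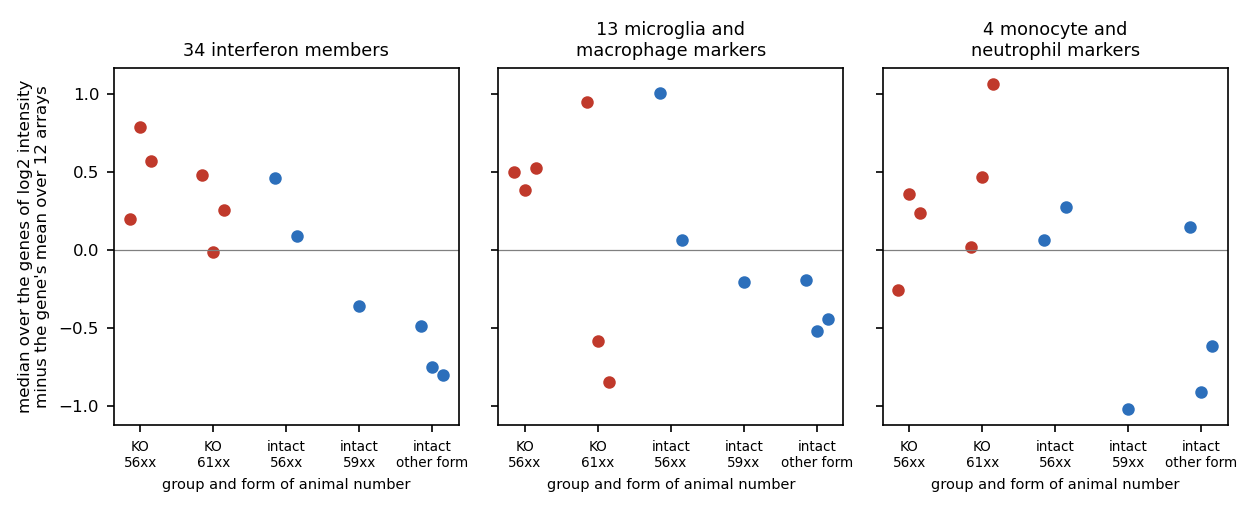
Median over the genes of the log2 deviation from each gene's mean over 12 arrays (vertical axis) for the 34 interferon members, 13 microglia and macrophage markers and 4 monocyte and neutrophil markers, with a point per array, by group and form of animal number. Interferon medians of the 56xx intact arrays, 0.46 and 0.09, lie among the knockout arrays, and the microglial medians of 2 knockout arrays of the 61xx form lie lowest of all at -0.58 and -0.85.

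Of 13 lymphocyte markers, 6 were measured, with 1 above 0 and a median of -0.22, and the 2 of smallest p, Cd3g and Ms4a1, differed by -0.39 and -0.28. The list's median was 0.10 with 4 above 0 with the column block as a term, and -0.46 with 1 above 0 within the 56xx series. The sum of these 6 markers ranged from 742 to 2027 in knockout gliomas and from 879 to 1585 in intact gliomas. Most of it came from Cd8b1, with means of 10.18 in knockout and 10.07 in intact gliomas. The others, Cd3g and Ms4a1 among them, were dim, with group means from 4.40 to 5.29. Gzmb, the killer cell protease gene, was detected on no array. The plasmacytoid dendritic cell list, cells that make much interferon-alpha, had 3 of 5 genes measured and 0 above 0. Its Pacsin1, also a neuronal gene, differed by -0.98 and Siglech, which microglia share, by -0.16. Of 8 neuron markers, 7 were measured, with 0 above 0 and a median of -1.37. That median was -0.19 with 2 above 0 with the column block as a term, and -1.65 with 0 above 0 within the 56xx series. The neuron sum ranged from 1533 to 12668 in knockout gliomas, against 2064 to 21098 in intact gliomas. Camk2a and Rbfox3 differed by -1.47 and -1.39. Endothelial markers, 7 of 7 measured, had a median of 0.25 with 4 above 0, against -0.24 with 1 above 0 within the 56xx series. Among them, over all arrays, Slco1a4 differed by 1.02 and Cdh5 by 0.45. The endothelial sum was 4849 to 5938 on the 56xx intact arrays and 2650 to 3964 on the other 4 intact arrays. In knockout gliomas it was 3561 to 5951. Most of this sum came from Cldn5, with means of 11.73 in knockout and 11.48 in intact gliomas, so it says little about the other endothelial genes. Glioma and progenitor markers had a median of 0.26 with 7 of 8 above 0, including 0.71 for Cspg4 and 0.65 for Nkx2-2. No gene of these lists was called, and their part in the interferon result was not tested.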

How the data were processed

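Expression was measured on Illumina bead arrays of 12 gliomas. The authors deposited, per the file headers, an intensity and a detection p-value per probe and array, on a linear scale and not normalized between arrays. The deposited value table, also of intensities, had column medians of 145 to 150.2 and served as an alternative. Neither the making of the detection p-values nor the normalization of that table is described in the labels or headers. Gene names came from the platform annotation, with 34772 of 45135 probes naming 1 gene, 18 several and 10345 none.

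Signals were processed with neqc in limma 3.58.1 (R 4.3.3): background correction from detection p-values, an offset of 16, quantile normalization and log2. A probe passed with a detection p under 0.05 on at least 3 of 12 arrays, which left 14155 genes, each read through its brightest probe. Groups were compared by two-sided limma tests (lmFit, eBayes), adjusted over all genes by the Benjamini-Hochberg method, in a script tested on simulated data. A probe that no array of 1 group detected gets a bound in place of a fold, the mean of the brighter group against that of the dimmer one with each dim value raised to at least the lowest detected signal of its array. The number of arrays limits the precision. The labels pair no animals across the groups, and the number of columns of other samples was 0.

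Members and lists were chosen with earlier results of these data known. Full values are given for the 3 sensors, 10 effectors and 6 feedback genes of smallest unadjusted p, members with a difference below 0 and those detected on no array of a group, and for other lists the 2 genes of smallest p. Alternatives were no background correction, an offset of 50, median scaling, no filter or a stricter one (6 arrays), the mean of a gene's probes, the value table, array weights, the column block, the number series, age, and leaving out each array.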

Additional observations from a re-analysis of the deposited data

Results flagged for a closer look

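A total of 70 sets of 6 arrays, 1 per measured gene and group and 1 per group for the median over the members, was checked for an array that stood far from the nearest of the others relative to the group's range, beyond Dixon's critical value for 6 samples, and 3 did so, where chance gives about 1 in 20. Knockout replicate 5 had the highest Samd9l value of its group, 11.2, with the next at 10.5. Knockout replicate 3 had the lowest Eif2ak2 value, 8.13, with the next at 9.12. Intact replicate 1 had the highest intact Parp10 value, 4.57, with the next at 4.41, and all of these intact Parp10 values were not well above background.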

How the results depend on the processing

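Over all members, 0 were called higher and 0 lower under every alternative except leaving out single arrays, where between 0 and 4 were called higher, with 4 without intact replicate 1. The count above 0 was 30 to 33 under each setting other than the number series, where it was 24. The median difference ranged from 0.31 (no background correction, and the authors' value table, both of which keep background in the signal) to 0.65 (stricter filter), with 0.45 at an offset of 50, 0.48 for the mean of a gene's probes and 0.48 to 0.73 when leaving out an array, and it was 0.22 with the number series as a block. With that block 11 members changed sign, to -0.46 for Rsad2, -0.27 for Irf1, -0.25 for Xaf1, -0.23 for Bst2, -0.22 for Dhx58, -0.20 for Trim30a, -0.16 for Sp100, -0.047 for Trim25, -0.0017 for Dtx3l, 0.15 for Adar and 0.18 for Zbp1. Of these values only that of Rsad2 was larger in size than its SE in that fit, 0.41. Rtp4 read -0.11 and Zbp1 0.0062 with the column block, and Oasl1 read -0.29 with age as a covariate. Leaving out single arrays moved Xaf1 between -0.045 and 0.17, with -0.016 without knockout replicate 1 and -0.00088 without intact replicate 6, and Zbp1 between -0.28 and 0.070. The cause of these changes was not tested. The age difference ranged from 14 to 20.2 days when leaving out an animal, an alternative added after seeing the data. No paired analysis was possible because the labels give no replicate numbers shared between the groups. Members near background, among them Ifit1, Oas1a, Mx1 and Ifih1, could not be compared at this signal.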
